A study of Mus musculus with 6 samples.

Results

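The genes described here encode the degradative machinery of the lysosome in mouse bone marrow-derived macrophages: its hydrolases and their activators, membrane proteins, other soluble proteins, the proton pump, and a pair of transcription factors of lysosomal genes. They are 49 genes chosen by symbol from textbook knowledge of the organelle, with cathepsins left out, among 28822 gene identifiers in the count table. The choice was made with earlier results of these data known. All 49 were found and all 49 passed the filter on low counts that left 15567 genes for testing. By role they are 21 hydrolases with 2 activator proteins of sphingolipid breakdown (Psap and Gm2a), 2 further soluble proteins, 7 membrane proteins, 2 transcription factors and 15 subunits of the vacuolar proton pump.

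RNA was sequenced from 6 libraries, 3 treated with BW723C86, an agonist of the serotonin receptor 5-HT2B, and 3 treated with its vehicle DMSO. The cells had been kept in the upper insert of a Transwell, a chamber with a porous floor, over mouse hippocampal neuronal cells of the line HT22, which had gone without oxygen and glucose for 2 h. Libraries of both groups therefore carry the exposure to injured HT22 cells, and no library without it enters the comparison. The series' title and sample labels name bone marrow-derived macrophages, while its design text also allows the microglial line BV2. Dose, treatment time and mouse strain could not be read from the sources used here, nor could the origin of the replicates. The p-values thus rest on library-to-library spread that may be technical in part or in full.

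Lysosomes break down material taken up from outside or delivered from within the cell. Their hydrolases mostly work best in acid, which the vacuolar ATPase (V-ATPase) supplies. This pump uses ATP hydrolysis in its V1 sector to drive protons through its membrane-bound V0 sector. Macrophages, which clear debris and dying cells, are rich in lysosomes. Many lysosomal genes carry in their promoters an E-box called the CLEAR element, which the related factors TFEB and TFE3 bind when they enter the nucleus, a step controlled by their phosphorylation.

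Total counts ran from 59971346 to 72562020 in the BW723C86 libraries and from 58841307 to 75931615 in the DMSO libraries, and no member had fewer than 971 counts in any library. Along the first principal component of log2 CPM (56.9% of the variance) the BW723C86 libraries lay at one end and the DMSO libraries at the other. CPM are counts scaled to a common library total, with edgeR's TMM adjustment. Summed macrophage markers stood at 33300 to 34400 CPM in BW723C86 libraries and at 37800 to 38700 CPM in DMSO libraries. Lyz2, for lysozyme, made up most of that sum, and of the 10 macrophage markers 4 were higher and 4 lower. Neuronal markers summed to 0.32 to 0.924 CPM in BW723C86 libraries and to at most 0.617 CPM in DMSO libraries, with Map2, Nefl and Dcx at 0 throughout. Summed microglial markers were at 10.3 to 12 CPM with BW723C86 and at 44.0 to 47.3 CPM with DMSO. Tmem119 made up most of the DMSO sum, at 28.3 CPM, against 4.28 CPM with BW723C86. Of 4 microglial markers tested, 3 were lower and 1, Olfml3, was higher (1.3 CPM with BW723C86, 0.574 with DMSO).

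BW723C86-treated macrophages had more RNA of most lysosomal genes. Of the 49 members, 42 were higher, none was lower and 7 did not pass an adjusted p of 0.05 in edgeR's quasi-likelihood test. Over all genes tested, 42.0% were called, 21.3% higher and 20.7% lower. Among the more strongly expressed genes, those with a group mean of at least 20 CPM, 30.7% were higher and 27.5% lower. In 41 members the libraries of the 2 groups did not overlap, against 52.3% of all genes tested. The exception among the genes called was Atp6v0b, for the proteolipid subunit c″ of V0.

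The changes were mostly small. The median log2 fold change of the members was 0.37, a 1.3-fold difference, beside a median of 0.00 and a middle 50% from -0.27 to 0.28 over all genes tested. It was at least 1.5-fold higher for 13 members, against 7.93% of all genes called higher by that much. It was at least 2-fold higher for Lgmn and Lipa, 2 of the 49 members, against 982 of all 15567 genes tested, called or not. When the test asked instead for a change beyond 1.2-fold, 23 members passed, all of them higher, and 10.3% of all genes did so in each direction. In bulk RNA, a change in the share of a cell type and a change in RNA per cell cannot be told apart.

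**Figure D1:**
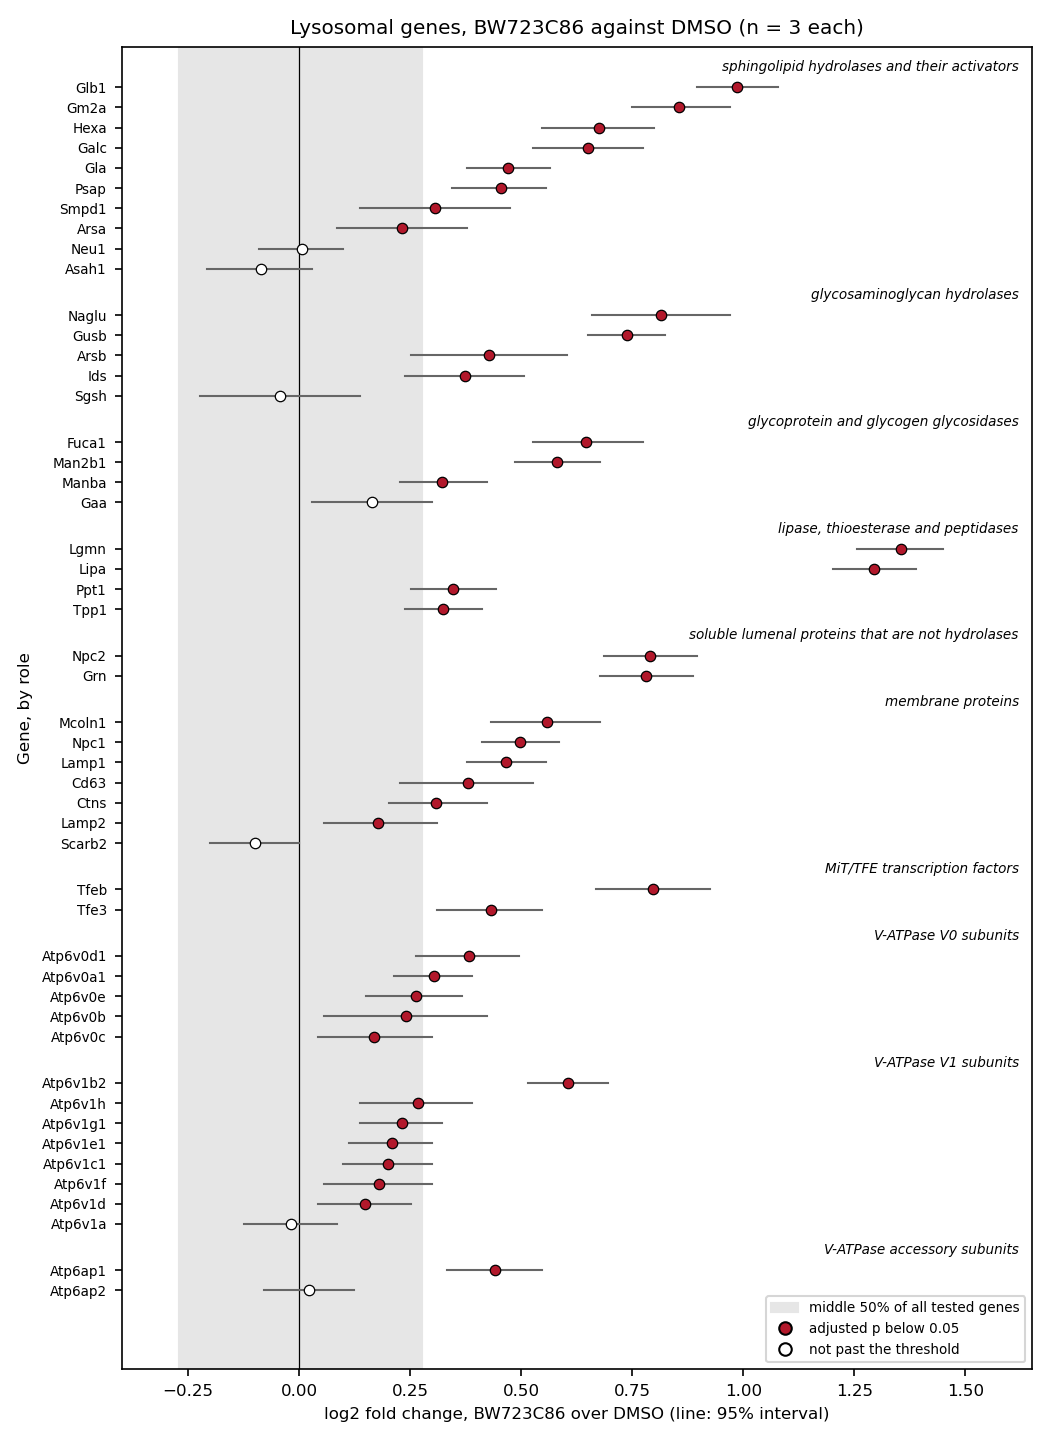
Log2 fold change of each of the 49 lysosomal genes, BW723C86 over DMSO (x axis), with genes grouped by role (y axis), lines for the 95% interval and a grey band for the middle 50% of all genes tested. The hydrolase genes Lgmn and Lipa lie farthest right, the pump genes lie closer to 0, and the 7 open points did not pass the threshold.

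In TMM-adjusted CPM, the 49 genes summed to 44630, 41180 and 43310 in the BW723C86 libraries, against 30560, 30530 and 30460 in the DMSO libraries. These sums are not plain shares of each library. TMM factors ran from 0.956 to 0.992 with BW723C86 and from 1.02 to 1.03 with DMSO, so ratios of plain shares would be smaller. On the adjusted scale the sum was 1.41 times as large with BW723C86, and the groups did not overlap. Psap, for prosaposin, alone made up 17600 ± 953 CPM with BW723C86 and 12800 ± 94.1 CPM with DMSO (SD, n = 3 each), and without it the ratio was 1.44. The 21 hydrolases summed to 7920 ± 181 CPM with BW723C86 and 5030 ± 27.3 CPM with DMSO, a ratio of 1.57. For the 15 pump subunits the sums were 5980 ± 197 CPM with BW723C86 and 4950 ± 57.7 CPM with DMSO, a ratio of 1.21. Medians followed the same order, with log2 fold changes of 0.43 for the hydrolases and 0.23 for the pump.

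Promoter sequences are shown for the 3 members with a CLEAR-type motif and the smallest p, to let the motif be seen beside the change in RNA. RefSeq's table for build GRCm38.p6 held promoters of 43 members, 250 bases before to 50 after each annotated start. The motif searched was TCACGTG on both strands, so that it can also read CACGTGA, and the palindrome TCACGTGA counted as 1 match. The windows below run 5′ to 3′ along the gene, with matches in capitals. They lie at chr12:102439043-102439342 on the minus strand for Lgmn, at chr9:114400828-114401127 on the plus strand for Glb1 and at chr8:13158911-13159210 on the plus strand for Lamp1.
Lgmn: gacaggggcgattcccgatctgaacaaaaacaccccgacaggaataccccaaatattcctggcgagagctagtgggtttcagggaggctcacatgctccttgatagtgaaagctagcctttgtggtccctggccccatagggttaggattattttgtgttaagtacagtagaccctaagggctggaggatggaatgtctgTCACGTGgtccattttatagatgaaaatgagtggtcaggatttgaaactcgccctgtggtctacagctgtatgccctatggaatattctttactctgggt
Glb1: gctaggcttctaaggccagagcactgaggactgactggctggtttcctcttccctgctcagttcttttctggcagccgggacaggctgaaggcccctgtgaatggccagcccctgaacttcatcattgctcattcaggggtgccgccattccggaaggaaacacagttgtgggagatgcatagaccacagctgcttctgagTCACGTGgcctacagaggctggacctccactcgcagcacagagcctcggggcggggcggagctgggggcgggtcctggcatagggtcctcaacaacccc
Lamp1: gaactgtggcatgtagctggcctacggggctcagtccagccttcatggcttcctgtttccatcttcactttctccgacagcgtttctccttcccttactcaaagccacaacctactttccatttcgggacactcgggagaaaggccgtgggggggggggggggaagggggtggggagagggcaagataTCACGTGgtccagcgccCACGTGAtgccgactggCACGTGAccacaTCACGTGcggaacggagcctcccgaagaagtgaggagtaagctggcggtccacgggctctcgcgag

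Lgmn and Glb1 have a single match each, 50 and 49 bases before the start. Lamp1 has 4, between 62 and 16 bases before it. In all, 13 of the 43 members with a promoter, 30.2%, held at least 1 match, against 4.29% of 27025 genes with such a promoter, 6.85% of tested genes and 8.32% of tested genes with a group mean of at least 20 CPM. The 6-base core CACGTG, which the longer motif contains, was in the same 13 members and in 8.09% of all genes. Among other genes listed as lysosomal hydrolases or membrane proteins, 6 of 49 held the longer motif, or 12.2%. Because many lysosomal genes are known to carry the CLEAR element, a higher share among the members is not an independent result. A match is a run of letters in this window and not a measured binding site.

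The motif stood in promoters of genes that changed and of genes that did not pass the test. It was found in 10 of 37 members that were higher, or 27.0%, and in 3 of 6 that did not pass, or 50.0%. Of 19 matches, 18 lay before the start and 14 within 100 bases of it. Windows of 28 bases around the match are shown for 4 genes that were higher (Naglu, the match of Mcoln1 nearest to the start, the farther one of Gla, and Atp6v0d1) and then for the 3 that did not pass (Gaa, Sgsh and Atp6v1a). On GRCm38.p6 the windows of the 4 lie at chr11:101070010-101070037 (plus), chr8:3500463-3500490 (plus), chrX:134601216-134601243 (minus) and chr8:105566051-105566078 (minus). The other 3 lie at chr11:119267812-119267839 (plus), chr11:119355522-119355549 (minus) and chr16:44139374-44139401 (minus).
Naglu: aaccttcaggTCACGTGgcccgaggtcg
Mcoln1: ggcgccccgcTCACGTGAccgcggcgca
Gla: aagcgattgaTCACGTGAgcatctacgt
Atp6v0d1: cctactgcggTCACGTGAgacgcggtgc
Gaa: ttctgtgcgaTCACGTGtttgactctga
Sgsh: gcctgccgtgCACGTGAccgtggggagc
Atp6v1a: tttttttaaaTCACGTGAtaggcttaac

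**Figure D2:**
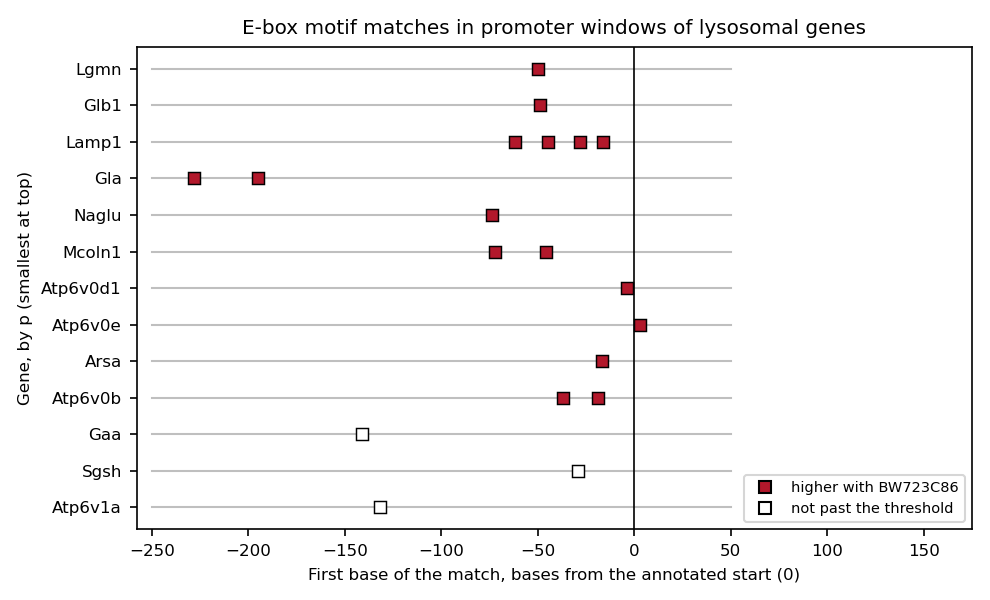
Position of each CLEAR-type match (square) in the 300-base promoter window (grey line) of the 13 lysosomal genes that hold one, in bases from the annotated start (x axis), with genes ordered by p (y axis). Matches cluster within 100 bases before the start in most genes, and the open squares of Gaa, Sgsh and Atp6v1a mark genes that did not pass the threshold.

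Sphingolipid breakdown was the largest role among the hydrolases, and 8 of its 10 genes were higher, with a median log2 fold change of 0.46. Glb1, the β-galactosidase that trims the ganglioside GM1, stood at 219.7, 219.3 and 227.4 CPM in the BW723C86 libraries, against 110.3, 112.4 and 113.8 CPM in the DMSO libraries. Its BW723C86 libraries all lay at about the same height, well clear of DMSO (log2 fold change 0.99, SE 0.043, adjusted p = 1.1e-09). Gm2a encodes the activator that presents the ganglioside GM2 to the enzyme that degrades it, and had 1238, 1086 and 1175 CPM in the BW723C86 libraries, against 641.2, 647.6 and 644.6 CPM in the DMSO libraries (log2 fold change 0.86, SE 0.051, adjusted p = 2.8e-08). Hexa, which encodes a part of that enzyme, had 1288, 1098 and 1241 CPM in the BW723C86 libraries, against 760.8, 771.5 and 740.8 CPM in the DMSO libraries (log2 fold change 0.67, SE 0.057, adjusted p = 8.2e-07). In both genes BW723C86 replicate 2 was the lowest of its group and still above every DMSO library.

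The other 5 sphingolipid genes that were higher had smaller changes, with Galc close to Hexa. Galc, whose enzyme splits galactosylceramide, reached 52.5 ± 2.5 CPM with BW723C86 and 33.5 ± 0.617 CPM with DMSO (log2 fold change 0.65). Psap, the precursor of the saposins that activate several of these enzymes, was by far the most abundant member per length, at 6620 CPM per kilobase of transcript with BW723C86 and 4830 with DMSO. Gla, for α-galactosidase A, which cuts globotriaosylceramide, gave a log2 fold change of 0.47. Smpd1, for acid sphingomyelinase, gave 0.31, and Arsa, for the sulfatide-cleaving arylsulfatase A, gave 0.23. Arsa did not pass without BW723C86 replicate 1 or without DMSO replicate 1 (adjusted p from 0.0731 to 0.105 over the 4 alternatives that lost it).

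The remaining 2 sphingolipid genes did not pass. Neu1, the sialidase that works in a complex with β-galactosidase and the protective protein Ctsa, had 146.3, 135.7 and 142.4 CPM in the BW723C86 libraries, against 141.1, 141 and 140.3 CPM in the DMSO libraries. The groups overlapped, with a fold change of 1 (95% interval 0.939 to 1.07, adjusted p = 0.92). With trends in GC content and length removed, Neu1 was lower (log2 fold change -0.10, adjusted p = 0.0118). Asah1, for acid ceramidase, had 357.8, 415.9 and 368.4 CPM in the BW723C86 libraries, against 404.2, 409.1 and 400.1 CPM in the DMSO libraries (log2 fold change -0.09, SE 0.055, adjusted p = 0.23). Its BW723C86 replicate 2 was above all DMSO libraries while the other two lay below them, and without that replicate Asah1 was lower (log2 fold change -0.17, adjusted p = 0.000257), as it was with libraries scaled by their totals alone (-0.16, adjusted p = 0.0432).

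Partners were compared by the ratio of their CPM per kilobase within each library, as a description with no test, since the pairs were chosen with these values known. Glb1 over Neu1 was 1.94, 2.08 and 2.06 in BW723C86 libraries and 1.01, 1.03 and 1.05 in DMSO libraries. Ctsa over Neu1 was 14.4, 13.5 and 14.0 in BW723C86 libraries and 7.33, 7.24 and 7.23 in DMSO libraries. Neither ratio overlapped between groups.

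**Figure D3:**
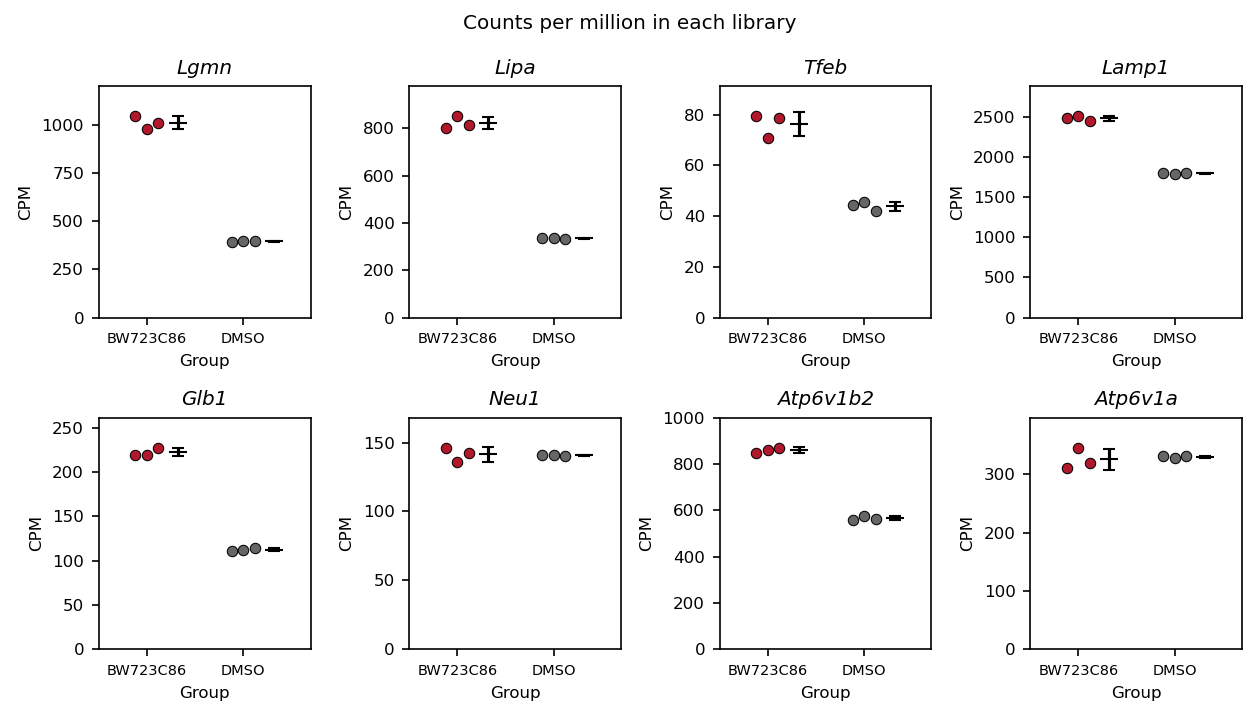
CPM (y axis, from 0) of 8 lysosomal genes in each library, with BW723C86 in red and DMSO in grey; bars beside the points are mean ± SD (n = 3 each). Lgmn, Lipa, Tfeb, Lamp1, Glb1 and Atp6v1b2 separate the groups, while Neu1 and Atp6v1a overlap.

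Among the enzymes that degrade glycosaminoglycans, 4 of 5 were higher, with a median log2 fold change of 0.43. Naglu, the α-N-acetylglucosaminidase of heparan sulfate, had 302.8, 236 and 273.4 CPM in the BW723C86 libraries, against 152.8, 156.1 and 153 CPM in the DMSO libraries (log2 fold change 0.81, SE 0.073, adjusted p = 1.8e-06). Gusb, the β-glucuronidase, had 588.3, 565.3 and 571.6 CPM in the BW723C86 libraries, against 345, 347.3 and 343.1 CPM in the DMSO libraries (log2 fold change 0.74, SE 0.041, adjusted p = 1.5e-08). Both genes separated the groups, Gusb with the tighter replicates. Arsb, the arylsulfatase that acts on dermatan and chondroitin sulfate, had 34.18, 38.05 and 38.41 CPM in the BW723C86 libraries, against 27.65, 24.56 and 30.01 CPM in the DMSO libraries (log2 fold change 0.43, SE 0.079, adjusted p = 0.00075).

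Ids, the iduronate sulfatase, was higher by 0.37 on the log2 scale. Sgsh, the sulfamidase that acts with Naglu on heparan sulfate, was the one that did not pass and also the least abundant member per length, at 3.88 CPM per kilobase with BW723C86 and 3.99 with DMSO. It had 16.94, 15.99 and 17.73 CPM in the BW723C86 libraries, against 18.68, 16.28 and 17.21 CPM in the DMSO libraries, and these ranges overlapped. Its fold change was 0.97 (95% interval 0.857 to 1.1), so a change as large as that of Naglu lies outside the interval. Exons of Sgsh overlap those of Card14 on the opposite strand, at 2.47 CPM with BW723C86 and 0.352 CPM with DMSO. Strand handling in counting is not stated in the sources used here, and the part of Card14 in these values was not tested. Shorter overlaps with other genes touch Glb1 (Tmppe), Hexa (Tmem202), Lamp1 (Grtp1), Npc1 (Rmc1) and Grn (Fam171a2), whose partners had far fewer counts.

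Of the 4 glycosidases of glycoproteins and glycogen, 3 were higher. Fuca1, the α-fucosidase, had 315.6, 274 and 318.1 CPM in the BW723C86 libraries, against 189.6, 195.1 and 195.1 CPM in the DMSO libraries (log2 fold change 0.65, SE 0.057, adjusted p = 1.2e-06). Man2b1, the lysosomal α-mannosidase, had 1374, 1283 and 1370 CPM in the BW723C86 libraries, against 904.7, 908.1 and 880.6 CPM in the DMSO libraries (log2 fold change 0.58, SE 0.045, adjusted p = 3.5e-07). These enzymes trim N-linked sugar chains, as does Manba, the β-mannosidase. Manba had 128.9, 138.5 and 135.8 CPM in the BW723C86 libraries, against 109.3, 105.2 and 108.5 CPM in the DMSO libraries (log2 fold change 0.32, SE 0.046, adjusted p = 9.5e-05).

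Gaa, the acid α-glucosidase that breaks down glycogen, lay just outside the threshold. It had 114.5, 94.71 and 108.3 CPM in the BW723C86 libraries, against 95.33, 92.21 and 95.76 CPM in the DMSO libraries (log2 fold change 0.16, SE 0.063, adjusted p = 0.053), and BW723C86 replicate 2 fell within the DMSO range. Without that replicate Gaa was higher (log2 fold change 0.22, adjusted p = 0.000278).

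The lipase, thioesterase and peptidase genes held the largest changes of all members, and all 4 were higher. Lgmn, legumain, an asparaginyl endopeptidase that also processes cathepsins, had 1046, 979.7 and 1013 CPM in the BW723C86 libraries, against 393, 396.1 and 398.9 CPM in the DMSO libraries. The gap between groups was many times the spread within them, and the fold change was 2.56 (95% interval 2.39 to 2.73; log2 fold change 1.36, SE 0.044, adjusted p = 7.2e-11). Lipa, the acid lipase that frees cholesterol and fatty acids from lipoprotein lipids, had 801.5, 850.4 and 811.9 CPM in the BW723C86 libraries, against 336, 335.2 and 333.3 CPM in the DMSO libraries. It too separated the groups widely, at 2.45-fold (95% interval 2.3 to 2.62; log2 fold change 1.29, SE 0.043, adjusted p = 9.5e-11).

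The other 2 genes of this role changed far less. Ppt1, the palmitoyl-protein thioesterase, had 516.6, 553 and 544 CPM in the BW723C86 libraries, against 416.2, 420.8 and 432.7 CPM in the DMSO libraries (log2 fold change 0.35, SE 0.044, adjusted p = 3.7e-05). Its exons share 129 bases with Cap1 on the opposite strand, a gene at 816 CPM with BW723C86 and 896 CPM with DMSO that was called lower. Tpp1, the tripeptidyl peptidase, had 415 ± 10.5 CPM with BW723C86 and 331 ± 0.753 CPM with DMSO, with a log2 fold change of 0.32.

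**Figure D4:**
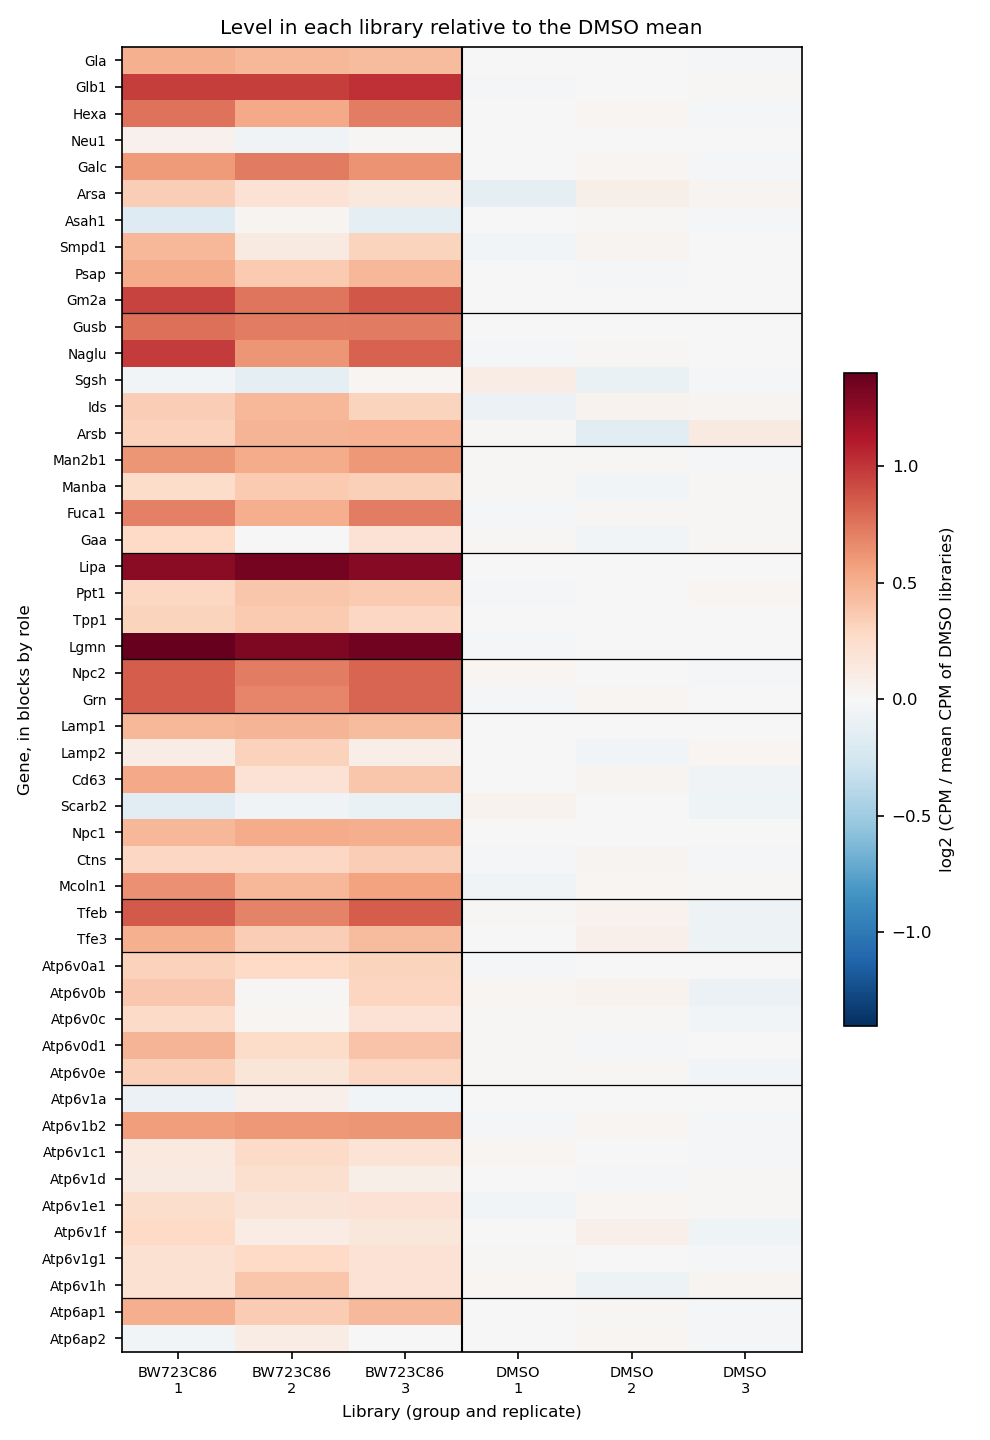
Log2 of CPM over the mean of the DMSO libraries (colour) for the 49 lysosomal genes (rows, in blocks by role) in each of the 6 libraries (columns). Red prevails in the BW723C86 columns, most strongly for Lipa and Lgmn, and BW723C86 replicate 2 departs from replicates 1 and 3 in genes such as Cd63, Gaa and Asah1.

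Both soluble lumenal proteins that are not hydrolases were higher by similar amounts. Npc2, which binds cholesterol in the lumen and passes it to Npc1, had 2163, 1969 and 2110 CPM in the BW723C86 libraries, against 1223, 1193 and 1190 CPM in the DMSO libraries (log2 fold change 0.79, SE 0.047, adjusted p = 2.7e-08). Grn, progranulin, which is cleaved in the lysosome into granulins, had 2884, 2589 and 2816 CPM in the BW723C86 libraries, against 1584, 1636 and 1599 CPM in the DMSO libraries (log2 fold change 0.78, SE 0.05, adjusted p = 4.7e-08). Grn was second only to Psap in level per length with BW723C86, at 1180 CPM per kilobase, against 687 with DMSO.

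Of the 7 membrane proteins 6 were higher, with a median log2 fold change of 0.38 and none reaching 1.5-fold. Mcoln1, the calcium channel TRPML1, had 87.29, 77.55 and 83.13 CPM in the BW723C86 libraries, against 54.41, 57.27 and 56.85 CPM in the DMSO libraries (log2 fold change 0.56, SE 0.056, adjusted p = 3.7e-06). Npc1, the membrane protein that exports cholesterol, had 417.7, 433.5 and 431.6 CPM in the BW723C86 libraries, against 301.1, 303.4 and 304.6 CPM in the DMSO libraries (log2 fold change 0.50, SE 0.041, adjusted p = 6.6e-07). Lamp1, the abundant glycoprotein of the lysosomal membrane, had 2488, 2505 and 2448 CPM in the BW723C86 libraries, against 1800, 1788 and 1800 CPM in the DMSO libraries (log2 fold change 0.47, SE 0.041, adjusted p = 1.2e-06). All 3 kept the groups apart.

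The tetraspanin gene Cd63 gave a log2 fold change of 0.38, but with 1400 ± 157 CPM with BW723C86 and 1080 ± 35.4 CPM with DMSO its spread was wide. Its processed copy Cd63-ps, at 54.5 CPM with BW723C86 and 18.3 CPM with DMSO, may share reads with it, which was not tested. Ctns, the cystine exporter, gave 0.31. Lamp2, which also serves chaperone-mediated autophagy, gave 0.18 and did not pass when any one of the 3 DMSO libraries was left out (adjusted p from 0.0637 to 0.19 over the 4 alternatives that lost it).

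Scarb2, a glycoprotein of the lysosomal membrane, was the membrane protein that did not pass. It had 186, 199 and 193.5 CPM in the BW723C86 libraries, against 213.6, 208.1 and 198 CPM in the DMSO libraries (log2 fold change -0.10, SE 0.047, adjusted p = 0.11), and one BW723C86 library lay above the lowest DMSO library. Without BW723C86 replicate 2 it was lower (log2 fold change -0.14, adjusted p = 0.0079). It was also lower with libraries scaled by their totals alone (-0.17, adjusted p = 0.0129) and with trends in GC content and length removed (-0.10, adjusted p = 0.0265).

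The transcription factors Tfeb and Tfe3 were both higher. Tfeb had 79.38, 70.85 and 78.75 CPM in the BW723C86 libraries, against 44.26, 45.55 and 41.96 CPM in the DMSO libraries (log2 fold change 0.80, SE 0.06, adjusted p = 2.6e-07). Tfe3 had 124.8, 111.6 and 120.2 CPM in the BW723C86 libraries, against 87.75, 92.44 and 84.21 CPM in the DMSO libraries (log2 fold change 0.43, SE 0.054, adjusted p = 3.1e-05). Neither gene's groups overlapped. The related genes Mitf and Tfec did not pass: Mitf stood at 49.6 ± 2.34 CPM with BW723C86 and 45.4 ± 1.73 CPM with DMSO (log2 fold change 0.13, SE 0.058, adjusted p = 0.093), and Tfec stood at 104 ± 8.07 CPM with BW723C86 and 95.4 ± 0.807 CPM with DMSO (log2 fold change 0.12, SE 0.056, adjusted p = 0.1). With trends in GC content and length removed, both passed and were higher (log2 fold changes 0.21 and 0.29). Whether the changes of Tfeb and Tfe3 differ from those of Mitf and Tfec was not tested, and RNA levels do not report where the proteins are.

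All 5 V0 subunit genes of the pump were higher, with a median log2 fold change of 0.26. Atp6v0d1, the subunit that couples V0 to the central stalk, had 372, 319.4 and 352.9 CPM in the BW723C86 libraries, against 270.5, 262.1 and 268.5 CPM in the DMSO libraries (log2 fold change 0.38, SE 0.055, adjusted p = 9.3e-05). Atp6v0a1, an isoform of the proton-path subunit a, had 421.8, 408.1 and 416.5 CPM in the BW723C86 libraries, against 333.6, 336.8 and 339 CPM in the DMSO libraries (log2 fold change 0.30, SE 0.041, adjusted p = 5.5e-05). Atp6v0e, a small membrane subunit, had 305.1, 273.3 and 295.7 CPM in the BW723C86 libraries, against 246.1, 246.1 and 235.7 CPM in the DMSO libraries (log2 fold change 0.26, SE 0.05, adjusted p = 0.00082). The groups stood apart in these 3 genes.

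The proteolipid genes Atp6v0b and Atp6v0c, which form the rotating ring, had less secure calls. Atp6v0b had 394.7, 306 and 374.3 CPM in the BW723C86 libraries, against 308.7, 314.9 and 286 CPM in the DMSO libraries, so that its BW723C86 replicate 2 lay inside the DMSO range. Its call was lost without BW723C86 replicate 1 or 3 or any DMSO replicate (adjusted p from 0.0559 to 0.127 over the 6 alternatives that lost it). Atp6v0c was higher by 0.17 on the log2 scale, and its call was lost when the same libraries were left out (adjusted p from 0.092 to 0.191 over 7 alternatives). The copy Atp6v0c-ps2, at 90.3 CPM with BW723C86 and 81.8 CPM with DMSO, may share reads with Atp6v0c, which was not tested.

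Of the 8 V1 subunit genes 7 were higher, with a median log2 fold change of 0.21. Atp6v1b2, subunit B of the ATP-hydrolysing ring, changed most among the 15 pump subunits listed and was the only one of them past 1.5-fold. It had 848.6, 862.7 and 871.1 CPM in the BW723C86 libraries, against 559.7, 576.1 and 560.7 CPM in the DMSO libraries (log2 fold change 0.61, SE 0.041, adjusted p = 1e-07). Atp6v1a, the catalytic subunit A of the same ring, had 310.5, 345.6 and 320.2 CPM in the BW723C86 libraries, against 330.7, 328 and 330.7 CPM in the DMSO libraries. Those values overlapped, with a fold change of 0.987 (95% interval 0.918 to 1.06) and an adjusted p of 0.78. Without BW723C86 replicate 2, Atp6v1a was lower (log2 fold change -0.08, adjusted p = 0.0386).

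The ratio of Atp6v1b2 to Atp6v1a per kilobase was 4.1, 3.74 and 4.08 in BW723C86 libraries, against 2.54, 2.63 and 2.54 in DMSO libraries. The regulatory subunit H gene, Atp6v1h, had 112.8, 127.4 and 112.4 CPM in the BW723C86 libraries, against 99.6, 93.25 and 100.1 CPM in the DMSO libraries (log2 fold change 0.27, SE 0.057, adjusted p = 0.0021). Atp6v1g1, of the peripheral stalk, had 224.8, 234.7 and 222.5 CPM in the BW723C86 libraries, against 196.3, 193.1 and 191.9 CPM in the DMSO libraries (log2 fold change 0.23, SE 0.043, adjusted p = 0.00076). The other 4 V1 genes called were Atp6v1e1, Atp6v1c1, Atp6v1f and Atp6v1d, with log2 fold changes from 0.21 down to 0.15. Atp6v1d lost its call without BW723C86 replicate 2 or any DMSO replicate (adjusted p from 0.0571 to 0.291 over 7 alternatives). Atp6v1f lost it without BW723C86 replicate 1 or 3 or DMSO replicate 1 or 3 (0.0502 to 0.119 over 5 alternatives).

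The accessory subunits of the pump parted. Atp6ap1, which helps V0 assemble, had 704.4, 632.5 and 676.6 CPM in the BW723C86 libraries, against 494.7, 499.2 and 487.9 CPM in the DMSO libraries (log2 fold change 0.44, SE 0.048, adjusted p = 8e-06). Atp6ap2, the prorenin receptor, had 279.4, 307.5 and 287.2 CPM in the BW723C86 libraries, against 287.5, 291.5 and 281.2 CPM in the DMSO libraries, and these values overlapped (fold change 1.02 (95% interval 0.947 to 1.09)). With trends in GC content and length removed, Atp6ap2 was higher (log2 fold change 0.20, adjusted p = 9.93e-05).

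Pump genes outside the 49 went both ways: of 15 tested, 5 were higher, 3 lower and 7 did not pass, with a median log2 fold change of 0.06. These shares, 33.3% higher and 20% lower, lie near the 30.7% and 27.5% of all genes with a group mean of at least 20 CPM. The list was not limited to such genes, and over all genes tested the shares were 21.3% and 20.7%. Tcirg1, the a3 isoform of subunit a that osteoclasts use, had 457.5, 390.7 and 451.4 CPM in the BW723C86 libraries, against 257.9, 272.9 and 264.7 CPM in the DMSO libraries (log2 fold change 0.71, SE 0.059, adjusted p = 6.8e-07). Atp6v0a2, the a2 isoform, averaged 84.2 ± 1.88 CPM with BW723C86 and 53.6 ± 2.37 CPM with DMSO (log2 fold change 0.65, SE 0.052, adjusted p = 4.4e-07). Counted per kilobase over these 3 isoforms, Tcirg1 made up 55.1% ± 1.84 of subunit a RNA with BW723C86 and 49% ± 0.747 with DMSO. The share of Atp6v0a1 was 38.7% ± 1.5 with BW723C86 and 45.4% ± 0.444 with DMSO. For subunit d, by contrast, the shares overlapped: Atp6v0d2 was higher (log2 fold change 0.44, SE 0.055, adjusted p = 2.9e-05), but its share was 53.1% ± 3.78 with BW723C86 and 52.2% ± 0.495 with DMSO.

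The pump genes that were lower act in assembly, though Atp6ap1, which helps V0 assemble, was higher. Dmxl2, a rabconnectin that promotes the joining of V1 to V0, had 63.52, 71.23 and 64.96 CPM in the BW723C86 libraries, against 154.5, 161.7 and 154 CPM in the DMSO libraries. This was the largest change among the pump genes tested, in either direction (log2 fold change -1.24, SE 0.053, adjusted p = 9.4e-10). Its partner Wdr7 was higher, at a log2 fold change of 0.30, as was Tmem199 of the same list (0.26, adjusted p = 0.013). Ccdc115 and Vma21, needed to build V0 in the endoplasmic reticulum, each gave -0.22 (adjusted p = 0.0029 and 0.026). Vma21 did not pass without BW723C86 replicate 3 or without DMSO replicate 2 or 3 (adjusted p = 0.116, 0.0647 and 0.128), and its sign turned with GC content and length trends removed (log2 fold change 0.05).

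**Figure D5:**
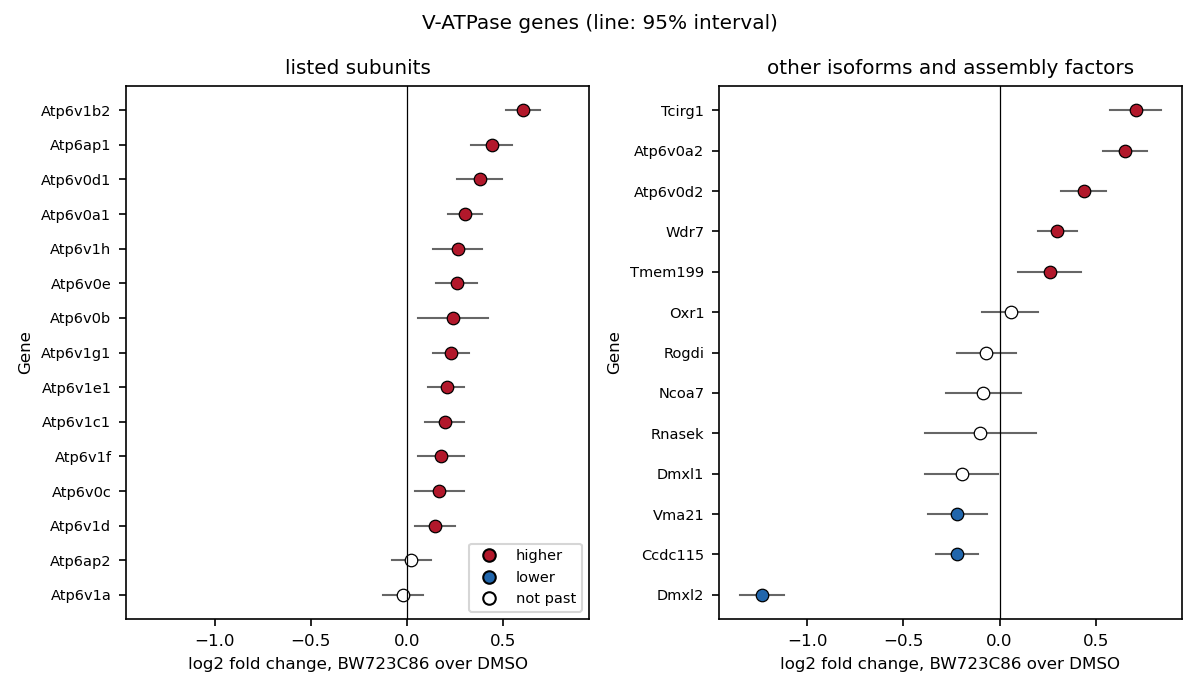
Log2 fold change, BW723C86 over DMSO (x axis, with 95% interval), of the 15 pump subunits among the 49 genes (left) and of other pump isoforms and assembly factors with a group mean of at least 5 CPM (right). The left panel leans above 0 with Atp6v1b2 highest, and the right panel spans Tcirg1 at 0.71 to Dmxl2 at -1.24.

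Lysosomal genes outside the 49, taken from lists by role, moved less uniformly. These lists and the 49 were chosen with earlier results of these data known. Of 141 tested, 72 were higher (51.1%), 12 lower (8.51%) and 57 did not pass, with a median log2 fold change of 0.19. Over all genes tested the shares were 21.3% higher and 20.7% lower. Among genes with a group mean of at least 20 CPM they were 30.7% and 27.5%. Among 34 further genes on the hydrolase list, not all of which encode hydrolases, 19 were higher (55.9%) and 2 lower (5.88%). Pld3, an exonuclease of the phospholipase D family, had 1790 ± 145 CPM with BW723C86 and 709 ± 3.05 CPM with DMSO (log2 fold change 1.34, SE 0.057, adjusted p = 8.6e-10). Dpp7, a dipeptidyl peptidase, had 214 ± 15.1 CPM with BW723C86 and 108 ± 2.9 CPM with DMSO (log2 fold change 0.99, SE 0.055, adjusted p = 1.3e-08). Creg1, a glycoprotein of the endolysosomal lumen, had 879 ± 24.2 CPM with BW723C86 and 522 ± 4.55 CPM with DMSO (log2 fold change 0.75, SE 0.043, adjusted p = 1.6e-08). These 3 had the smallest p of that list among the genes that were higher.

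Arsg, an arylsulfatase of heparan sulfate breakdown, and Ctbs, the chitobiase, were the 2 that were lower. Arsg stood at 15.5 ± 0.419 CPM with BW723C86 and 25 ± 1.63 CPM with DMSO (log2 fold change -0.69, SE 0.075, adjusted p = 8.4e-06), and Ctbs stood at 17.7 ± 0.398 CPM with BW723C86 and 22.1 ± 0.788 CPM with DMSO (log2 fold change -0.32, SE 0.07, adjusted p = 0.0024). Of 12 cathepsin genes tested, 10 were higher (83.3%, against 21.3% of all genes tested) and none lower, with a median of 0.78. Ctsb, Ctsk and Ctsa had the smallest p, with log2 fold changes of 1.74, 2.26 and 0.95.

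Among 29 further membrane protein genes 21 were higher (72.4%, against 21.3% of all genes tested) and none lower, with a median of 0.37. Gpnmb, a glycoprotein of the macrophage lysosome, gave a log2 fold change of 1.13. Mcoln3, the TRPML3 channel, had 102, 120.5 and 100.4 CPM in the BW723C86 libraries, against 34.47, 34.11 and 32.37 CPM in the DMSO libraries (log2 fold change 1.68, SE 0.071, adjusted p = 8.1e-10). Like its relative Mcoln1, it kept the groups apart. Slc11a1, the metal transporter NRAMP1 of phagosomes, had 138 ± 8.31 CPM with BW723C86 and 68.7 ± 1.31 CPM with DMSO (log2 fold change 1.00, SE 0.052, adjusted p = 6.5e-09). Cd68, a macrophage marker of the lysosomal membrane, gave only 0.17 (adjusted p = 0.0078), and did not pass without DMSO replicate 1 (adjusted p = 0.0519).

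Of 17 genes for the sorting of enzymes to the lysosome, 7 were higher (41.2%) and 2 lower (11.8%). Over all genes tested the shares were 21.3% and 20.7%, and 30.7% and 27.5% with a group mean of at least 20 CPM. Igf2r, the large mannose 6-phosphate receptor, had 183.6, 184.3 and 181.9 CPM in the BW723C86 libraries, against 91.36, 96.27 and 93.19 CPM in the DMSO libraries (log2 fold change 0.97, SE 0.043, adjusted p = 1.4e-09). Gga2, an adaptor that loads such receptors into vesicles, and Cln8, which moves new enzymes out of the endoplasmic reticulum, gave 0.45 and 0.38. Those lower were Ap1g1, of the AP-1 adaptor (log2 fold change -0.34, SE 0.049, adjusted p = 9.1e-05), and the sorting receptor Sort1 (log2 fold change -0.14, SE 0.044, adjusted p = 0.022). Sort1 did not pass when any one DMSO library was left out (adjusted p = 0.0726, 0.0655 and 0.0951).

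Of 34 genes of the MiT/TFE factors and lysosomal nutrient sensing, 10 were higher, 5 lower and 19 did not pass, with a median of 0.11. The amino acid transporter gene Slc36a1 had 164 ± 7.59 CPM with BW723C86 and 90.7 ± 1.22 CPM with DMSO (log2 fold change 0.86, SE 0.048, adjusted p = 1.3e-08). Fnip2 and Flcn, partners in the complex that permits TFEB and TFE3 to be phosphorylated, gave log2 fold changes of 0.52 and 0.50. Those lower with the smallest p were Ywhab, of the 14-3-3 proteins that hold TFEB in the cytosol, at -0.42, the arginine sensor gene Castor1 at -0.86, and Lamtor4, of the Ragulator complex, at -0.49. The share of genes higher in this list, 29.4%, lies near the 30.7% of all genes with a group mean of at least 20 CPM. Its share lower, 14.7%, is below the 27.5% of those genes. The list was not limited to such genes, and over all genes tested 21.3% were higher and 20.7% lower.

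Markers of other cell types also differed between groups. Dendritic cell markers summed to 4550 to 4870 CPM with BW723C86 and 943 to 946 CPM with DMSO. Of 8 tested, 6 were higher, while Flt3 and Ccr7 did not pass. Most of that sum was Itgax (2360 CPM with BW723C86, 471 with DMSO) and H2-Aa (2300 CPM with BW723C86, 428 with DMSO). Osteoclast markers summed to 1030 to 1110 CPM with BW723C86 and 647 to 649 CPM with DMSO, with 7 of 9 tested higher and 1 lower. Of these, Acp5, Ctsk and Atp6v0d2 also stand on the lists of lysosomal genes. Neutrophil markers summed to 709 to 813 CPM with BW723C86 and 2630 to 2710 CPM with DMSO, and all 9 tested were lower. Mmp8 made up most of that sum, at 716 CPM with BW723C86 and 2420 CPM with DMSO. Mast cell markers summed to 54.8 to 59.6 CPM with BW723C86 and 96.3 to 104 CPM with DMSO, with 2 of 4 tested lower and none higher. Cpa3 was lower, at 11.7 CPM with BW723C86 and 51.6 CPM with DMSO. Kit did not pass, at 44.9 CPM with BW723C86 and 46.4 CPM with DMSO. The part of these cell types in the change of the lysosomal genes was not tested.

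Replicates of BW723C86 varied more than those of DMSO. The median coefficient of variation of the members was 5.4% with BW723C86 and 1.67% with DMSO, against 5.71% with BW723C86 and 3.15% with DMSO over genes with a group mean of at least 20 CPM. BW723C86 replicate 2 was the lowest of its group in 28 members and the highest in 17, and so stood at an end in 91.8% of them, against 84.7% of those genes. Leaving out single libraries kept 36 of the 42 calls in all 6 fits.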

How the data were processed

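Poly(A) RNA libraries, strand-marked with dUTP and read as paired ends per the labels' protocols, were made from 3 BW723C86 and 3 DMSO samples. The deposited table holds estimated counts, whole throughout, for each gene. The submitters' processing notes name fastp, HISAT2, StringTie and edgeR and the builds GRCm39 and GRCh38, while strand handling in counting is not stated in the sources used here. Multiples of 4 are over-represented (4613 values of 4, against 2904 of 3), so what 1 fragment is worth is uncertain, and counts divided by 4 were tried.

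Symbols for 27005 of 28822 identifiers came from a reference list of gene names. The longest transcript per gene came from GENCODE M21, which describes another build. Exon overlaps between genes were found with its coordinates, and none of its genome positions are printed. Promoter windows carry the GRCm38.p6 coordinates of RefSeq's table, which is not the build named for the counts either. edgeR 4.0.16 (R 4.3.3) fitted all 6 libraries with TMM scaling, its default expression filter and a robust quasi-likelihood F test, two-sided, with Benjamini-Hochberg adjustment over 15567 genes at 0.05. SE are of the log2 fold change; intervals are at 95%. The procedure was tested on simulated data. All replicate pairs differed by more than sampling noise and were kept as separate samples.

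Genes given in full were, per role, the 3 largest changes past the threshold and the 2 most abundant members that did not pass, with a few always named; other lists gave the 3 smallest p in each direction. Tpp1 is described besides, and a few genes of the other lists are not reported here. Members, lists and the rule were chosen with earlier results of these data known. Alternatives were other scalings, filters, DESeq2 1.42.0, limma-voom (limma 3.58.1), a 1.2-fold test, a replicate block, removal of GC and length trends, and leaving out each library.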

Additional observations from a re-analysis of the deposited data

How the results depend on the processing

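Of the 42 lysosomal genes called higher, 35 kept that call in all 17 alternatives other than the test against 1.2-fold; the exceptions were Arsa, Atp6v0b, Atp6v0c, Atp6v1c1, Atp6v1d, Atp6v1f and Lamp2. The number higher ran from 35 (library totals only) to 43, apart from the 1.2-fold test. That test called 1609 genes higher and 1599 lower over all genes, 23 lysosomal genes higher, and 5 of the other lysosomal genes lower. Scaling by library totals alone moved the median of all genes to -0.069 on the log2 scale and made 38.5% of calls higher, against 50.8%; 2 members, Asah1 and Scarb2, were then lower. Removing GC content and length trends also made 2 members lower, Scarb2 and Neu1 (whose sign turned, log2 fold change -0.10), and turned the sign of Vma21 (0.05). Causes were not tested.

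With each library left out in turn, all genes higher ran from 2715 to 3440 and lower from 2623 to 3713, members higher from 36 to 42 and lower from 0 to 3, and other lysosomal genes higher from 65 to 77 and lower from 9 to 17. The 3 members lower, without BW723C86 replicate 2, were Asah1, Scarb2 and Atp6v1a.

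Samples of the 2 groups share replicate numbers, but the deviations of same-numbered samples correlated at 0.031, -0.025 and -0.005. These values show no sign of pairing by number, but cannot exclude that same-numbered samples had a shared origin. With the replicate block 42 members were higher and none lower, and 41 calls were kept; Atp6v1d was lost and Gaa gained. Depth limits no member, but the count that 1 fragment gives is uncertain.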
